A study of Vitis vinifera with 42 samples.

Results

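The genes described here encode the proteins that package DNA, license and run its replication, and drive the cell cycle: the histones, the minichromosome maintenance (MCM) proteins, proliferating cell nuclear antigen (PCNA) and the cyclins of types A, B and D. They were taken from the deposited gene table by their KEGG Orthology description, which had to begin with histone H, cyclin A, cyclin B or cyclin D, or to name minichromosome maintenance, a DNA replication licensing factor or proliferating cell nuclear antigen. The rule found 102 of 28940 genes: 51 histones (9 H1, 19 H2A, 6 H2B, 10 H3 and 7 H4), 11 MCM genes, 2 PCNA genes and 38 cyclins (6 A, 14 B and 18 D). The rule reads the description alone, not the expression values. Of the 102 genes, 77 had a mean of at least 1 FPKM (fragments per kilobase of transcript, scaled to the mapped reads of the library) in at least 1 group and were tested, 25 were not, and none was at 0 in every library.

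Berries of field-grown Cabernet Sauvignon vines were collected and freed of their seeds before RNA extraction. The stages follow the modified Eichhorn-Lorenz (E-L) scale: pepper-corn berries (E-L 29), pea-size berries (E-L 31), the start of colouring or véraison (E-L 35), berries of intermediate sugar content (E-L 36), berries not quite ripe (E-L 37) and harvest (E-L 38). Clusters of T2 hung in the light and gave 18 libraries from all 6 stages; clusters of T1 were enclosed in opaque paper bags from E-L 29 to harvest and gave 15 libraries from E-L 31 onward; clusters of T8 were bagged at E-L 35, uncovered at E-L 36, and gave 9 libraries between E-L 36 and harvest. Each of the 14 groups had 3 biological replicates, A, B and C. T1 and T8 had no library of their own from before bagging, so the E-L 29 and E-L 35 libraries of T2 served as their starting points.

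Histones H2A, H2B, H3 and H4 form the core around which DNA is wrapped, and H1 binds the linker between such particles. In dividing cells the canonical histones are made together with DNA in S phase, while replacement variants such as H3.3 and H2A.Z are also laid down outside it. MCM2 to MCM7 form the ring that is loaded at replication origins and later unwinds DNA, PCNA is the sliding clamp that holds the polymerase, D-type cyclins act at entry into the cycle, and A-type and B-type cyclins act from S phase to mitosis. In grape berries most cell division is completed early in development, before véraison, and growth afterwards is largely by cell expansion.

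Total FPKM per library lay between 561036 and 672526.1, and 21090 to 23537 genes were above 0. Libraries of 1 group correlated at Pearson's r of 0.936 to 0.985 across genes, which are not independent replicates. Counts per gene were not used, so the counting precision behind single FPKM values is unknown. A list of 19 seed tissue genes (storage proteins and late embryogenesis proteins) was checked because the berries were meant to be free of seeds. Its summed level stood apart in T8 at E-L 36, with 770.26 to 1907.68 FPKM against 141.86 to 186.85 in T2. At E-L 31 the sum was 4456.24 to 14225.64 FPKM in T1 and 605.52 to 4515.79 in T2, with overlap. Of the listed genes, the 12S seed storage globulin gene VIT_212s0059g02390 did not pass a group mean of 0.05 FPKM. The basic 7S globulin-like gene VIT_214s0128g00200 made up most of the sum in T1 at E-L 31 (group mean 8611.05 FPKM). Of the 12 tested members, 9 were above T2 in T1 at that stage and 3 below. The vicilin-like gene VIT_206s0004g03260 had group means of 301.02 FPKM in T1 and 26.97 in T2. Library A of T2 at E-L 29 also stood apart: its sum over 31 photosynthetic genes was 3258.04 FPKM, below the group mean of 4169.32.

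The families had different courses through ripening in light-grown berries. The summed level of all 51 histones was 1718.75 ± 37.1 FPKM (SD, n = 3) at E-L 29, was lowest at véraison (1198.44 ± 63.8) and reached 2794.68 ± 127 FPKM at E-L 37, 2.33 times the value at E-L 35. MCM2 to MCM7 together went from 10.73 ± 6.7 FPKM at E-L 29 to 1.79 at E-L 31 and back to 15.42 at harvest. At E-L 29 library A held 18.47 FPKM, against 6.86 and 6.87 in libraries B and C. The 18 D-type cyclins went the other way, from 72.17 ± 23.5 FPKM at E-L 29 to 9.9 at harvest. Since these are bulk berries, fewer dividing cells and less RNA per cell cannot be told apart.

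**Figure D1:**
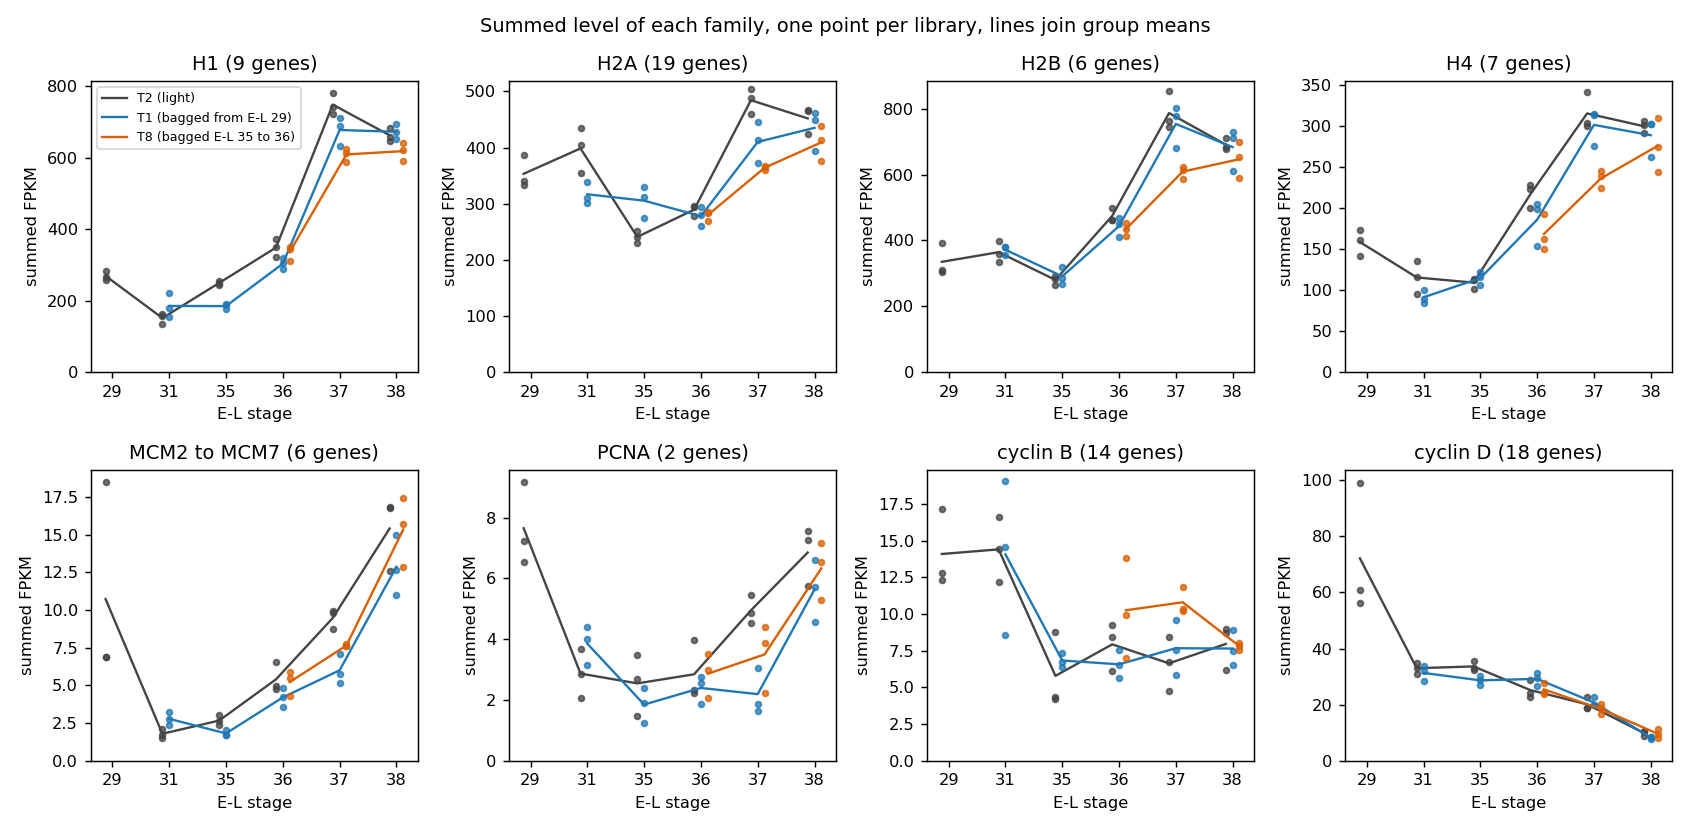
Summed FPKM of 8 gene families against E-L stage, with 1 point for each library and lines through the group means of T2 (light), T1 (bagged from E-L 29) and T8 (bagged from E-L 35 to 36). H1 rose from 151.16 FPKM at E-L 31 to 748.38 at E-L 37 in T2, the sum of MCM2 to MCM7 dipped at E-L 31 and E-L 35, and the D-type cyclins ended at 9.9 FPKM at harvest.

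Tests were run on log2(FPKM + 1) with limma over 21902 genes, and a gene was called where the adjusted p was under 0.05 and the change at least 2-fold on that scale, which understates the change of low genes. From E-L 29 to E-L 31 in T2, 31 of the 77 tested genes fell and 1 rose, against 11.9% and 6.28% of all tested genes. Their median log2 change was -0.67, against -0.12 over all tested genes. The fall took in 5 of 7 MCM genes, the tested PCNA gene, 7 of 11 D-type cyclins, 3 of 8 B-type and 1 of 3 A-type cyclins, and 14 of 47 histones (4 of 8 H1, 2 of 16 H2A, 0 of 6 H2B, 4 of 10 H3 and 4 of 7 H4). Without library A of T2 at E-L 29 the number of calls in this comparison was 25 instead of 32.

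The licensing ring came first by role and was low throughout, with only MCM7 reaching a group mean of 5 FPKM. MCM2 (VIT_201s0150g00390) had 4.11, 1.42 and 1.84 FPKM in the T2 libraries at E-L 29 and then 0.48, 0.34 and 0.57 at E-L 31, a log2 change of -1.17 (SE 0.17, adjusted p = 1e-06). MCM5 (VIT_211s0149g00130) had 3.28, 0.95 and 0.68 FPKM at E-L 29 and then 0.07, 0.15 and 0 at E-L 31 (log2 change -1.17, adjusted p = 3.2e-06). In both genes the groups did not overlap, and library A was well above the other E-L 29 libraries.

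MCM4 (VIT_203s0038g00300, log2 change -1.16), MCM6 (VIT_200s0184g00040, -1.01) and MCM7 (VIT_207s0005g01430, -1.13, the grape match of the Arabidopsis gene PROLIFERA) were called lower at E-L 31 as well. MCM3 (VIT_210s0003g03080) changed by less than the threshold (-0.67, adjusted p = 0.0016), and the MCM9 gene VIT_202s0033g00190, whose animal counterpart works with MCM8 outside the ring, had a log2 difference of -0.35 (adjusted p = 0.23). Library A was the highest of the E-L 29 libraries in 7 of 7 tested MCM genes, and in 49 of 77 tested members (63.6%) against 44.1% of all tested genes. Without it the log2 changes were -0.84 for MCM2, -0.98 for MCM4, -0.78 for MCM6 and -0.68 for MCM7, all under 2-fold on the log2(FPKM + 1) scale. MCM5 was no longer tested because its group means were then under 1 FPKM. MCM6 also fell just short without library B or C of E-L 31 (-0.97 and -0.98) and after scaling of the libraries (-0.92), and the adjusted p of MCM7 was 0.061 when only the groups compared were fitted.

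From véraison to harvest (T2 E-L 38 against E-L 35, a comparison added after the stage-by-stage results were seen), 30 of 77 members rose and 3 fell, against 11.7% and 12.7% of all tested genes. The median log2 change was 0.64, against 0.06 over all tested genes. MCM7 changed most among the MCM genes: it had 0.28, 0.1 and 0 FPKM at E-L 35 and then 5.73, 5.4 and 3.91 at E-L 38, a log2 change of 2.41 (SE 0.25, adjusted p = 4.6e-10). Every harvest library was above every véraison library. Its harvest level also passed that of E-L 29, where the libraries had 3.26, 0.72 and 0.59 FPKM (log2 change 1.39, adjusted p = 7.3e-06).

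MCM6 rose from 0.74, 0.21 and 0.53 FPKM at E-L 35 to 3.14, 3.72 and 2.19 at E-L 38 (log2 change 1.42, adjusted p = 1.4e-08). MCM4 rose from 0.49, 0.77 and 0.74 FPKM to 3.08, 3.29 and 2.54 (1.25, adjusted p = 3.4e-07), and MCM3 from 1.07, 0.86 and 0.9 FPKM to 3.08, 2.94 and 2.67 (1, adjusted p = 7.2e-06). MCM3 lay at the threshold on the log2(FPKM + 1) scale. It was under 2-fold there without library B or C of E-L 35 or library A of E-L 38 (0.97 to 0.99). After scaling it was 0.89. The other subunits of the ring, MCM2 and MCM5, were not called. MCM2 had a group mean of 0.34 FPKM at E-L 35 and then 1.32, 1.16 and 0.91 FPKM at harvest. Its log2 change was 0.66 (adjusted p = 0.0013), under 2-fold on the log2(FPKM + 1) scale. MCM5 had a group mean of 0.1 FPKM at E-L 35 and then 0.43, 0.35 and 0.39 FPKM at harvest (0.34, adjusted p = 0.12). At such low levels that scale understates the change. Against E-L 29, MCM5 was lower at harvest at any fold (-0.8, adjusted p = 0.00029), as was MCM2 (-0.63, adjusted p = 0.0017), but without library A of E-L 29 the MCM2 difference was -0.3 (adjusted p = 0.058) and MCM5 was not tested. MCM6 was higher at any fold (0.79).

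PCNA (VIT_206s0004g05920) had 9.18, 7.24 and 6.54 FPKM at E-L 29, then 3.68, 2.06 and 2.87 at E-L 31, then 2.69, 3.47 and 1.48 at E-L 35, and then 7.26, 7.55 and 5.75 at harvest. It fell by 1.17 on the log2 scale from E-L 29 to E-L 31 (SE 0.23, adjusted p = 6.1e-05) and rose by 1.18 between E-L 35 and harvest (adjusted p = 3.7e-05, 0.94 without library C of E-L 35). The first and last stages overlapped (log2 difference -0.14, adjusted p = 0.61). Of the members that were not tested, MCM8 (VIT_208s0040g03290), MCM10 (VIT_203s0038g02370) and the other PCNA gene (VIT_206s0004g05930) reached group means of at most 0.53, 0.537 and 0.07 FPKM. A pair of MCM9-annotated genes, VIT_202s0033g00090 and VIT_202s0033g00140, reached at most 0.36 and 0.243 FPKM.

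**Figure D2:**
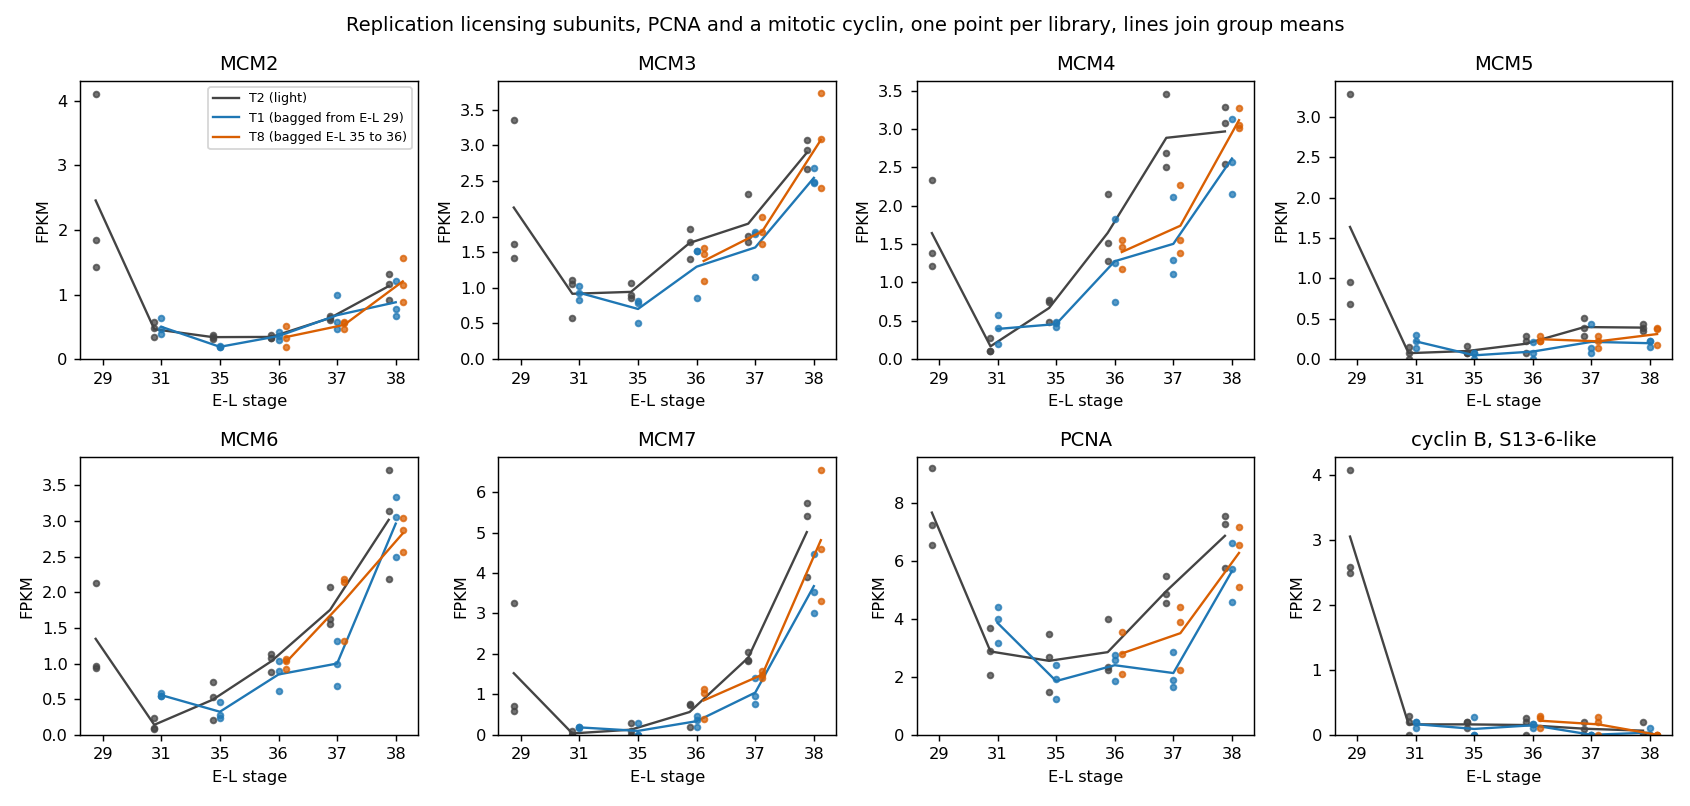
FPKM of MCM2 to MCM7, PCNA and a mitotic B-type cyclin against E-L stage, with 1 point for each library and lines through the group means of T2, T1 and T8. By T2 group means, MCM2 to MCM7 and PCNA were higher at E-L 29 and at harvest than at E-L 31 and E-L 35. Library A was the highest of the E-L 29 libraries in each of them. The rise from E-L 35 to harvest was not called for MCM2 and MCM5. MCM4, MCM6 and MCM7 had already passed their E-L 29 means at E-L 37. MCM5 did not pass 0.51 FPKM after E-L 29, and the S13-6-like cyclin B did not pass 0.29 FPKM after E-L 29.

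The histone sum peaked late in ripening. Between E-L 35 and harvest, 23 of 47 tested histones rose and 0 fell at 2-fold, with a median log2 change of 0.96. The risers were 5 of 8 H1, 5 of 16 H2A, 3 of 6 H2B, 4 of 10 H3 and 6 of 7 H4 genes. Reads of 50 bases may not separate near-identical histone copies, so the division of reads between them is uncertain: the H2B genes VIT_206s0004g04230, VIT_206s0004g04240 and VIT_206s0004g04250 shared 1 best protein match, and so did the H4 genes VIT_213s0019g00760, VIT_213s0019g00780 and VIT_213s0019g00800.

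Linker histone H1 had the widest swing of the 5 histone sums, 4.95 times higher at E-L 37 than at E-L 31. VIT_207s0141g00730, the most abundant H1 gene (mean of 121 FPKM over the 42 libraries), had 67.74, 86.73 and 80.01 FPKM at E-L 29, then 40.27, 28.25 and 32.54 at E-L 31, and then 210.54, 242.28 and 223.43 at E-L 37. It fell by 1.2 on the log2 scale to E-L 31 (adjusted p = 3.3e-11) and was 1.47 higher at E-L 38 than at E-L 35 (SE 0.11, adjusted p = 1.5e-13). None of these groups overlapped.

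VIT_205s0020g04800 followed the same course, from 18.11, 16.11 and 19.55 FPKM at E-L 31 to 165.37, 178.77 and 160.15 at E-L 37, and was 1.54 higher at E-L 38 than at E-L 35 (adjusted p = 2.2e-13). VIT_204s0023g03130 was already up at véraison, from 28.13, 23.83 and 26.05 FPKM at E-L 31 to 81.39, 78.62 and 70.1 at E-L 35 (log2 change 1.53, adjusted p = 4.5e-08), and had its highest level at harvest (227.08, 219.85 and 219.44 FPKM). Of the 9 genes with an H1 description, 5 had a match score under 100 bits, VIT_205s0020g04800 among them (95.9 bits). VIT_201s0011g05360 matched an HMG-Y-related DNA-binding protein rather than H1. That gene rose by 1.96 on the log2 scale between E-L 35 and harvest.

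H4, of which each core particle carries a pair, had its lowest T2 level at E-L 31 in 4 of 7 genes and at E-L 35 in the other 3. VIT_206s0004g03890 had 10.19, 9.92 and 12.39 FPKM at E-L 31, rose to 20.82, 22.28 and 26.84 at E-L 35 (log2 change 1.04, adjusted p = 2.4e-05, 0.94 without library C of E-L 35), and had then 51.13, 58.33 and 63.03 at E-L 36 (log2 change 1.27, adjusted p = 8.9e-06) and 96.98, 85.79 and 88.35 at E-L 38 (1.92 against E-L 35, adjusted p = 1.8e-10). VIT_208s0007g00040 had also risen to véraison (1.05, adjusted p = 2.1e-05, 0.84 without library B of E-L 35), and went from 18.12, 24.22 and 12.71 FPKM at E-L 35 to 81.5, 81.62 and 82.38 at harvest (2.14, adjusted p = 1.7e-11). VIT_213s0019g00780 had the largest H4 change, 2.26 (adjusted p = 7.2e-09), from 2.24, 4.71 and 3.09 FPKM. The most abundant H4 gene, VIT_213s0067g03650, moved less: its group mean was 61.71 FPKM at E-L 35 and then 93.22 at E-L 38 (0.59, adjusted p = 7.2e-05, under 2-fold).

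H2B held 2 of the 7 members that rose between E-L 35 and E-L 36. VIT_213s0019g05370 had 57.6, 73.75 and 78.57 FPKM at E-L 31, fell to 22.12, 24.11 and 25.76 at E-L 35 (log2 change -1.5, adjusted p = 2e-09), rose to 48.43, 61.98 and 54 at E-L 36 (1.15, adjusted p = 3e-06) and reached 109.65, 96.76 and 89.32 at harvest. VIT_206s0004g04300 went from 45.04, 56.05 and 54.99 FPKM at E-L 35 to 207.93, 240.7 and 201.92 at E-L 37, and was 1.82 higher at E-L 38 than at E-L 35 (adjusted p = 1.8e-14). The groups at E-L 35 and at harvest did not overlap in either gene. VIT_206s0004g04250, the most abundant H2B gene (mean of 144 FPKM over 42 libraries), stayed just under 2-fold over the same interval (0.94, adjusted p = 1.4e-08).

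Within H2A the annotated types did not move alike. The H2A 1 gene VIT_219s0014g05020 rose from 37.01, 38.74 and 38.73 FPKM at E-L 35 to 94.71, 83.91 and 87.06 at E-L 38 (log2 change 1.19, adjusted p = 3.6e-11), and the H2A.3 gene VIT_200s0865g00030 from 21.57, 20.35 and 20.48 FPKM to 49.9, 52.99 and 63.32 (1.36, adjusted p = 1.4e-09). From E-L 29 to harvest these 2 genes changed by 0.98 (adjusted p = 1.1e-09) and 0.2 (adjusted p = 0.22). Over that longer interval the H2A.4 gene VIT_206s0004g04270 fell by 1.78 on the log2 scale (adjusted p = 3.1e-09). It was highest at E-L 29 (21.73, 11.98 and 13.52 FPKM) and had 4.27, 3.15 and 3.87 FPKM at harvest. Its group means at E-L 35 and E-L 38 were 3.57 and 3.76 FPKM. The H2A variant 3 gene VIT_204s0008g04700, of the H2A.Z type, had 26.92, 18.73 and 17.74 FPKM at E-L 29. At harvest it had 53.74, 54.52 and 43.19 FPKM (log2 change 1.23, adjusted p = 2.4e-11). More abundant genes with the same variant 3 match did not share this rise. Their log2 differences were 0.06 for VIT_209s0002g05770 (adjusted p = 0.69) and -0.14 for VIT_209s0002g05780 (adjusted p = 0.52). The H2AX gene VIT_207s0104g00970, whose product is phosphorylated at DNA breaks, had a group mean of 47.47 FPKM at E-L 35 and then 76.63 at E-L 38 (0.68, adjusted p = 1e-05, under 2-fold).

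Among the 10 tested H3 genes, 6 had their T2 maximum in pepper-corn berries (E-L 29). The H3.3 gene VIT_200s2837g00010 was the most abundant of all members, with 431, 549 and 517 FPKM at E-L 29, then 215, 263 and 268 at E-L 35 and then 344, 359 and 317 at E-L 38. The difference between E-L 29 and harvest was under 2-fold (log2 -0.55, adjusted p = 0.00013). Another gene matched to H3.3, VIT_207s0191g00130, also fell, from a group mean of 11.91 FPKM at E-L 29 to 4.97 at harvest (-1.03, adjusted p = 0.017). The H3.3 gene VIT_204s0023g03120 had the opposite order, 10.61, 10.36 and 10.63 FPKM at E-L 29 and then 48.26, 43.12 and 37.95 at harvest (1.93, adjusted p = 4.8e-15). VIT_218s0001g13680 had 20.24, 19.46 and 27.55 FPKM at E-L 35 and then 67.81, 69.67 and 63.5 at E-L 38 (1.55, adjusted p = 1.3e-12), and VIT_218s0072g00800 rose by 2.41 (adjusted p = 1.4e-08) from a group mean of 1.25 to 11 FPKM. Without VIT_200s2837g00010, the histone sum at E-L 37 was 2.61 times that at E-L 35.

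Of the 11 tested D-type cyclins, 7 fell between E-L 29 and E-L 31. From there to E-L 35, 2 rose and 3 fell, against 3.7% and 14.2% of all tested genes. The risers were VIT_203s0180g00040 and VIT_200s0322g00010 (the latter named after its values were seen). All 18 D-type members carry the description of plant cyclin D3, although their best protein matches also named D1 and D4 types. VIT_218s0001g09920, matched to cyclin-D3-1, had 12.77, 4.91 and 3.61 FPKM at E-L 29 and then 0.26, 0.53 and 0.26 at E-L 31 (log2 change -2.42, SE 0.21, adjusted p = 1.7e-11), and was at 0 in every T2 library at harvest. VIT_218s0001g07220 went from 16.02, 10.45 and 8.54 FPKM to 2.63, 1.91 and 2.31 (-1.91, adjusted p = 7.4e-10), and VIT_207s0129g00200 from 14.3, 6.93 and 8.79 FPKM to 3.57, 3.78 and 2.59 (-1.31, adjusted p = 6.8e-06). The E-L 29 and E-L 31 libraries did not overlap in any of these genes, and without library A of E-L 29 the changes were -1.96, -1.68 and -1.04. With a pseudocount of 0.1, VIT_207s0129g00200 lost its call (adjusted p = 0.067).

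From E-L 29 to harvest (T2, also added after earlier results were seen), 9 of 11 tested D-type cyclins fell, with a median log2 change of -2.08. Over all members 14 rose and 19 fell, against 11.6% and 29.1% of all tested genes, and the median was 0.05 against -0.23. The fallers among the cyclins thus stood beside risers among the H1, H2B and H4 genes, of which 4, 3 and 3 rose. VIT_203s0180g00040, the most abundant cyclin D gene (mean of 7.65 FPKM over 42 libraries), had a further maximum at véraison: 19.54, 10.39 and 9.04 FPKM at E-L 29, then 6.03, 2.59 and 5.6 at E-L 31, then 15.47, 16.76 and 16.39 at E-L 35 and then 1.51, 1.27 and 1.61 at harvest. It rose by 1.64 to véraison (adjusted p = 2.6e-07), and fell by 2.81 from véraison to harvest (adjusted p = 1.8e-12), of which 1.86 was between E-L 37 and E-L 38 (adjusted p = 2.1e-07). VIT_218s0001g01240, a member by description with a match score of 84 bits, differed by 0.09 between véraison and harvest (adjusted p = 0.7).

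B-type cyclins were low in ripening berries. The 3 genes given first were chosen after their values were seen. VIT_208s0040g00930, matched to mitotic-specific cyclin S13-6, had 4.07, 2.49 and 2.58 FPKM at E-L 29 and then 0, 0.29 and 0.19 at E-L 31 (log2 change -1.79, SE 0.13, adjusted p = 7.3e-13). VIT_213s0067g01420, matched to mitotic-specific cyclin-1, fell by 1.21, and VIT_218s0001g14170 fell by 1.29. None of the 3 returned with the MCM genes and histones: their group means at harvest were 0.06, 0 and 0.05 FPKM. The B-type members that were called higher at harvest than at véraison were VIT_216s0115g00450, matched to a cyclin-B3-1-like protein (1.56 to 3.63 FPKM, log2 change 1.01, adjusted p = 0.032, 0.15 without library A or B of E-L 35), and VIT_213s0073g00570, named after its values were seen (0 to 1.33 FPKM, adjusted p = 0.00041). The most abundant gene with a cyclin B description, VIT_211s0052g00090, was the single member that rose from E-L 29 to E-L 31 (1.04, adjusted p = 0.00037), its match score was only 84.7 bits, and it was under 2-fold without library C of E-L 29 (0.9) or library A of E-L 31 (0.95).

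Of the 3 tested A-type cyclins, 1 was called lower at E-L 31 than at E-L 29 and 0 were called between véraison and harvest. VIT_218s0001g02060 held the highest level of the cyclins, 20.11, 29.12 and 31.08 FPKM at E-L 29 and then 14.61, 13.93 and 15.98 at E-L 35, with a log2 difference of 0.19 between véraison and harvest (adjusted p = 0.19). VIT_209s0002g05240, matched to cyclin-A2-4, had 2.42, 3.54 and 2.52 FPKM at E-L 29, then 0.53, 1.3 and 0.63 at E-L 31 and then 2.77, 3.88 and 3.62 at E-L 35. It was called lower at E-L 31 (-1.08, adjusted p = 0.0002, -0.95 without library B of E-L 29) and higher again at E-L 35 (1.3, adjusted p = 1.9e-05).

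**Figure D3:**
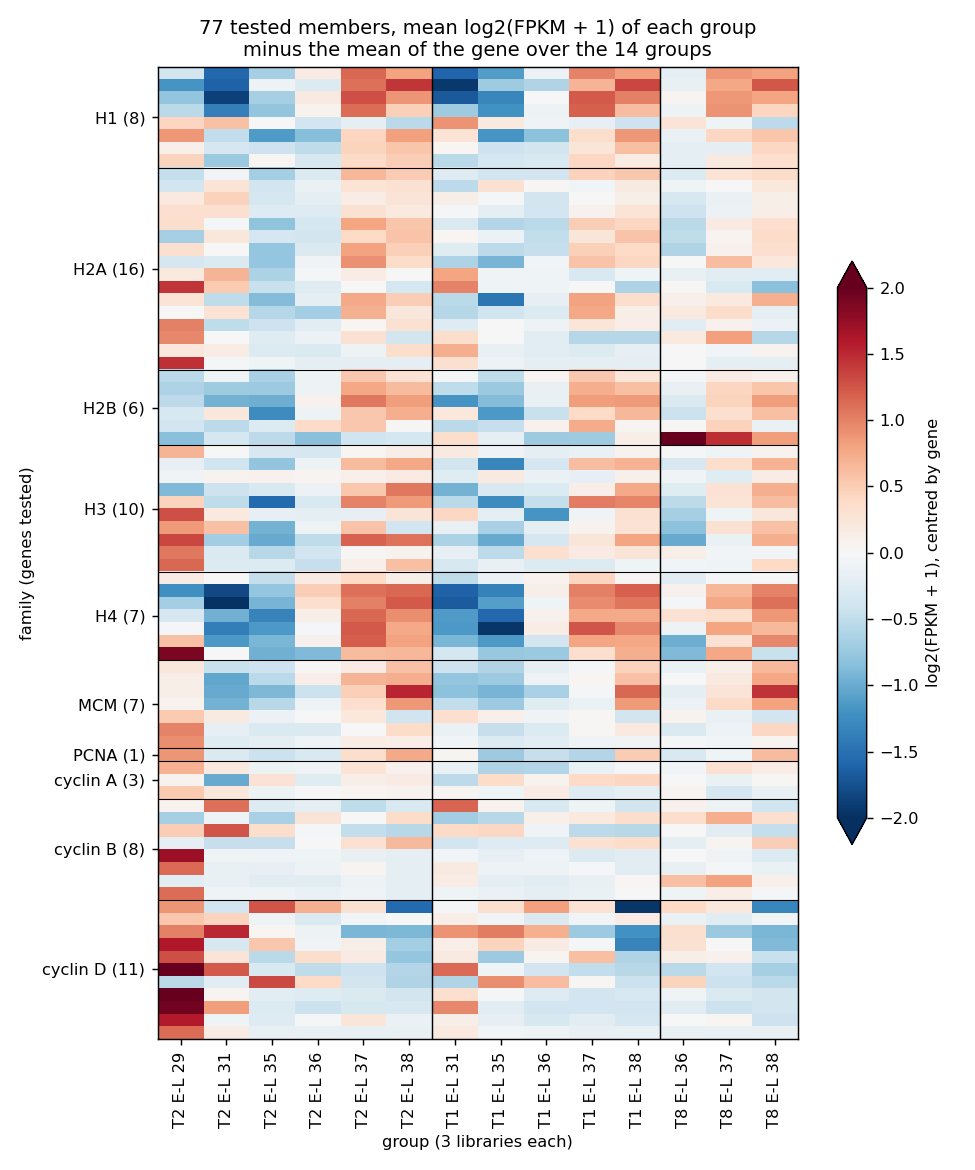
Mean log2(FPKM + 1) of each of the 77 tested members in the 14 groups, centred on the mean of the gene over the groups, with genes ordered by family and level. Red marks groups above and blue groups below the mean of the gene: most H1, H2B and H4 genes are red at E-L 37 and E-L 38 in T2, T1 and T8, while 8 of 11 tested D-type cyclins had their T2 maximum at E-L 29.

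The step at which these changes took place differed between families. From E-L 31 to E-L 35, 7 members rose and 8 fell, against 3.7% and 14.2% of all tested genes. Between E-L 35 and E-L 36, 7 rose and 0 fell, against 1.09% and 2.78%, and all 7 were core histones (2 H2B, 1 H3 and 4 H4). Between E-L 36 and E-L 37, 13 rose and 0 fell, against 3.45% and 2.94%, again all histones (4 H1, 3 H2A, 2 H3 and 4 H4), and the log2 difference was above 0 in 46 of 47 tested histones with a median of 0.68. The median of all tested genes was 0.16 in that step, and after scaling of the libraries it was 0 and 7 members were called. Between E-L 37 and E-L 38 only MCM7 rose (1.04, adjusted p = 0.0019, 0.95 and 0.98 without library A or B of E-L 38, adjusted p = 0.072 with a pseudocount of 0.1) and only the D-type cyclin VIT_203s0180g00040 fell, against 0.808% and 4.26%.

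Of the 31 members that fell from E-L 29 to E-L 31 in T2, 12 (38.7%) were among the 30 that rose between E-L 35 and harvest, which is 40% of the latter. Of all 77 tested members 39% rose late, close to the 38.7%, so nothing is read from this overlap. The 12 were MCM4, MCM6, MCM7, PCNA, 3 genes with an H1 description, 1 H3 gene and 4 H4 genes, and they included no cyclin. These comparisons share no library.

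The late rise was also measured under continuous bagging. In T1, 27 members rose and 4 fell between E-L 35 and harvest (a comparison added after results were seen), against 13.4% and 15% of all tested genes, with a median log2 change of 0.51 against 0.02. Of these 27 genes, 26 (96.3%) were among the 30 that rose in T2 (86.7% of the T2 genes), where 39% of all tested members rose. MCM7 had 0, 0.29 and 0 FPKM at E-L 35 and then 3.54, 3.01 and 4.48 at E-L 38 in T1 (2.09, adjusted p = 7.1e-09), and PCNA had 2.41, 1.91 and 1.23 and then 6.62, 5.71 and 4.58 FPKM (1.23, adjusted p = 1.9e-05). VIT_205s0020g04800, with an H1 description, rose by 2.31 (adjusted p = 1.1e-17), from 25.12, 23.94 and 32.21 FPKM to 129.43, 146.23 and 136.31. As in T2, the cyclin D gene VIT_203s0180g00040 fell by 2.26 (adjusted p = 1.8e-10).

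In the single steps of T1, the risers between E-L 35 and E-L 37 were histones, and those after E-L 37 were MCM7 and PCNA. From T2 E-L 29 to T1 E-L 31, 2 members rose and 17 fell, against 5.03% and 12.2% of all tested genes, and all 17 had also fallen in T2, a comparison that shares the E-L 29 libraries. From E-L 31 to E-L 35 in T1, 2 rose and 6 fell (background 3.75% and 12%). The next steps were tested after the results of T2 were seen: 7 rose and 0 fell from E-L 35 to E-L 36 (1.79% and 3.05%), and 13 rose and 1 fell from E-L 36 to E-L 37 (2.53% and 3.5%). Between E-L 37 and harvest, 2 rose and 3 fell (1.43% and 5.47%), the risers being MCM7 (1.2, adjusted p = 0.00029) and PCNA (1.09, adjusted p = 0.0003, 0.98 without library B of E-L 37) and the fallers 3 D-type cyclins.

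At matched stages, no member was called between T1 and T2 in the limma test on log2(FPKM + 1) at any of the 5 stages. In plain FPKM some group means differed by more than 2-fold. At E-L 35 the D-type cyclin VIT_203s0180g00040 had 8.04 FPKM in T1 against 16.21 in T2, and VIT_203s0091g01060 had 7.38 against 3.25. The shares of all tested genes called higher and lower were 2.71% and 3.45% in pea-size berries and 0.785% and 1.44% at véraison. Later they were 0.301% and 0.342% at E-L 36, 0.11% higher and 0.671% lower at E-L 37, and then 0.0411% and 0.297% at harvest. Before adjustment, 19, 18, 8, 16 and 4 members had p under 0.05 at these stages. With a pseudocount of 0.1 instead of 1, limma called 6, 4, 0, 2 and 1 members.

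Smaller differences passed the adjusted threshold at any fold. They numbered 6 higher and 9 lower in T1 at E-L 31 (13% and 16% of all tested genes), 4 higher and 7 lower at véraison (6.71% and 5%), 0 higher and 1 lower at E-L 36 (1.07% and 1.21%), and 0 higher and 4 lower at E-L 37 (0.53% and 3.35%). The A-type cyclin VIT_218s0001g02060 was lower in T1 at each of these stages, by 0.32 (adjusted p = 0.044), 0.5 (adjusted p = 0.0046), 0.51 (adjusted p = 0.016) and 0.41 (adjusted p = 0.047) on the log2 scale. At E-L 35 its T1 libraries had 10.57, 10.36 and 9.62 FPKM against 14.61, 13.93 and 15.98 in T2, with no overlap. At E-L 38 its T1 libraries had 16.48, 14.56 and 15.58 FPKM against 16.73, 19.03 and 15.46, and the groups overlapped.

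At E-L 37 PCNA was lower in the bagged berries, with 1.87, 1.65 and 2.86 FPKM in T1 against 4.86, 4.53 and 5.46 in T2 (log2 difference -0.94, SE 0.23, adjusted p = 0.013). MCM4 had 1.29, 1.11 and 2.11 FPKM against 3.46, 2.69 and 2.51 at the same stage (-0.65, adjusted p = 0.034). The groups did not overlap in either gene, and both differences were under 2-fold on this scale. At harvest the PCNA libraries of T1 (6.62, 5.71 and 4.58 FPKM) overlapped those of T2.

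The effect of bagging was also compared between E-L 31 and E-L 35. Its difference between the 2 stages was called for 5 members, 3 higher and 2 lower at E-L 35. These are 3.9% and 2.6% of the tested members, below the 5.23% and 3.59% of all tested genes. Before adjustment, 22 members had p under 0.05 in the limma test. The H2AX gene VIT_207s0104g00970 had 48.91, 33.29 and 47.41 FPKM in T1 at E-L 31 against 73.92, 70.24 and 79.28 in T2, but 77.35, 79.74 and 71.38 FPKM in T1 at E-L 35 against 53.14, 42.96 and 46.3 in T2. The log2 effect of bagging was -0.79 and then 0.67, a difference of 1.46 (SE 0.17, adjusted p = 2.3e-07), and T1 and T2 did not overlap at either stage. The seed tissue sums at E-L 31 given above had a higher group mean in T1, with overlap, and their part in the result was not tested.

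**Figure D4:**
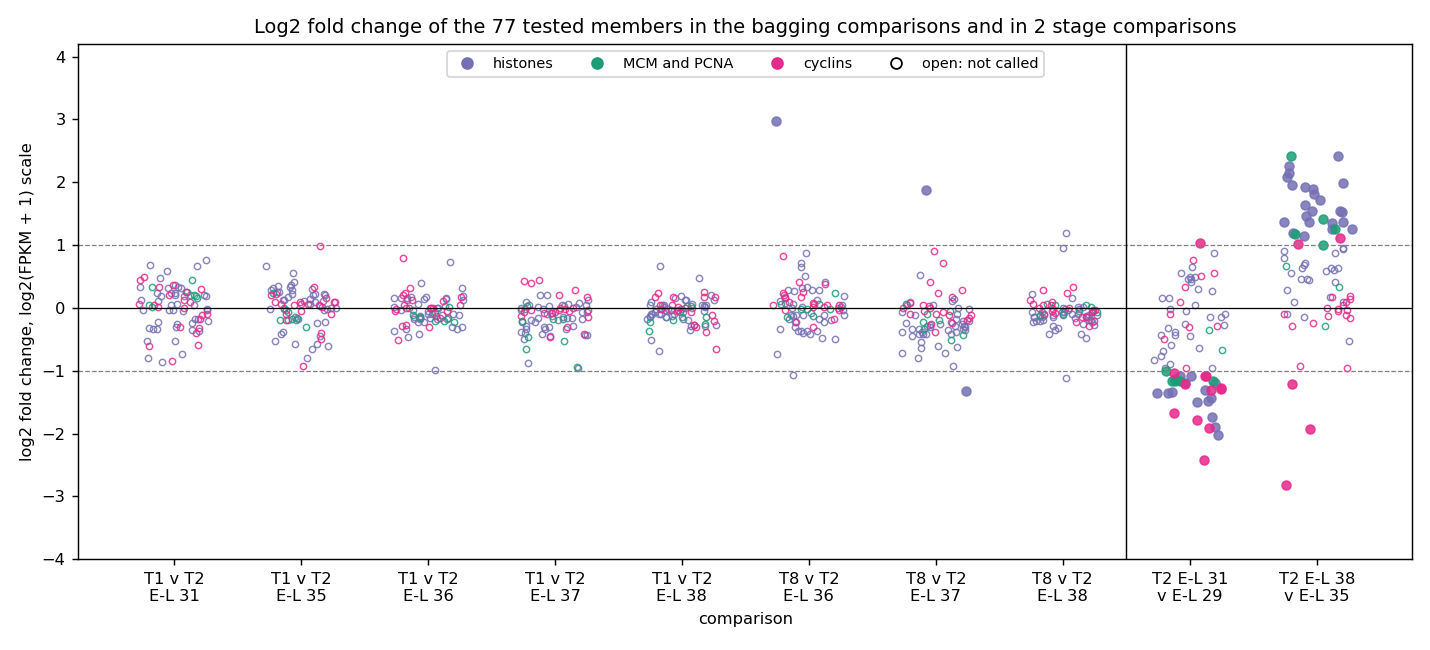
Log2 fold change on the log2(FPKM + 1) scale of the 77 tested members in 8 comparisons of bagged with light-grown berries and, to the right of the vertical line, in 2 stage comparisons within T2; filled points were called and dashed lines mark 2-fold. Only T8 at E-L 36 and E-L 37 has filled points among the bagging comparisons, 1 and 2 of them, while 32 members were called from E-L 29 to E-L 31 and 33 between E-L 35 and harvest.

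Berries bagged only from véraison to E-L 36 had 1 member called against T2 at E-L 36, higher, with a background of 3.67% higher and 0.365% lower. This was the H2B gene VIT_206s0061g00870, matched to histone H2B.2, with 9.9, 8.14 and 3.92 FPKM in T8 and 0 in all 3 T2 libraries, so no fold against T2 is given. The adjusted p was 3.8e-05 on the log2(FPKM + 1) scale, where the difference was 2.98 (SE 0.46). Against T1 at E-L 36, with 0, 0 and 0.28 FPKM, it was again the 1 member called higher and 0 were lower (adjusted p = 0.00013, background 2.79% and 0.196%, 8 members with an unadjusted p under 0.05).

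The same H2B gene had 4.28, 5.55 and 2.6 FPKM in T8 at E-L 37 against 0.29, 0.92 and 0 in T2 (1.88, adjusted p = 0.013), but was not called without library B of T8 (adjusted p = 0.072) or library C of T2 (adjusted p = 0.08). At E-L 38 it had 1.5, 3.55 and 1.85 FPKM against 0.29, 1.12 and 0. It was also above 1 FPKM in single libraries of other groups, such as 3.89 FPKM in a pea-size and 2.83 in a véraison library of T1. The seed tissue sum moved with it: 8 of the 12 tested seed genes were higher in T8 at E-L 36 than in T2 and 5 of 12 at E-L 37, where the sums were 745.02 to 867.89 FPKM against 58.7 to 199.37. The vicilin-like gene VIT_206s0004g03260 had a group mean of 45.33 FPKM in T8 at E-L 36 against 1.75 in T2. In each of these groups 4 of the 19 seed genes were at 0, not all of them the same. Their part in the result was not tested.

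**Figure D5:**
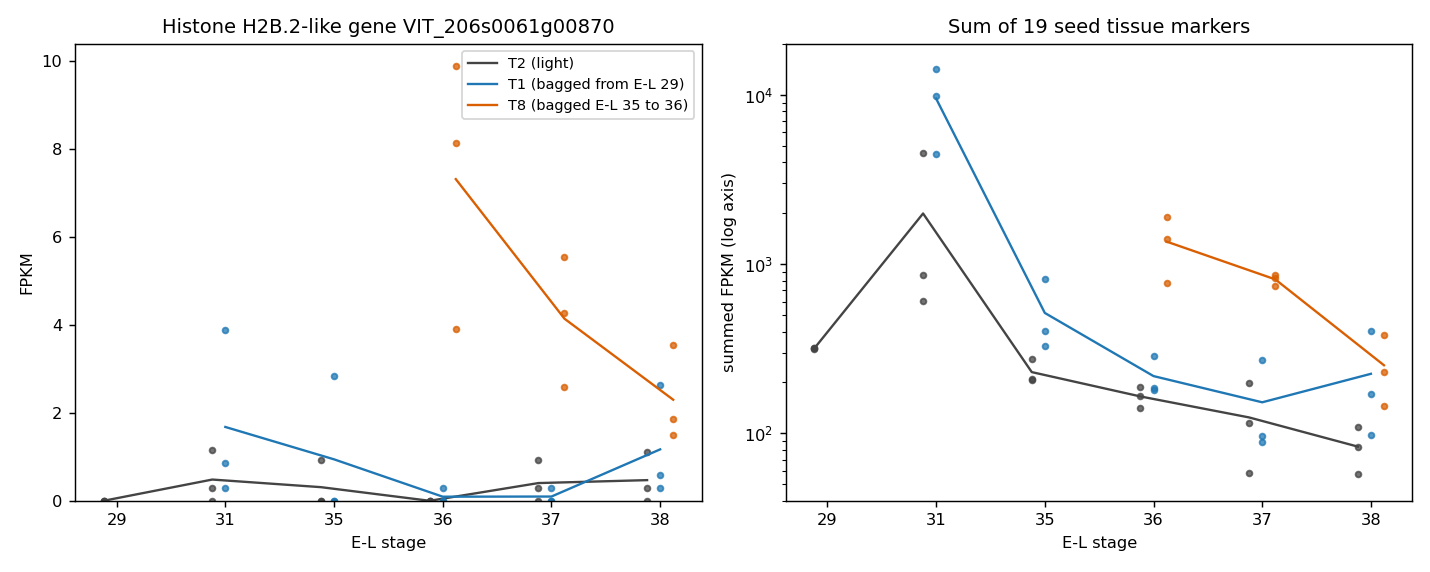
FPKM of the H2B.2-like gene VIT_206s0061g00870 (left, linear axis) and summed FPKM of 19 seed tissue genes (right, log axis) against E-L stage, with 1 point for each library and lines through the group means of T2, T1 and T8. In T8 the H2B gene was between 3.92 and 9.9 FPKM at E-L 36, where the seed sums were 770.26 to 1907.68 FPKM. T1 at E-L 31 had the highest group mean of the seed sums, with H2B values of 0.29 to 3.89 FPKM.

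At any fold, 5 members were higher and 4 lower in T8 than in T2 at E-L 36, against 9.27% and 2.64% of all tested genes. At E-L 37, after the bags had been removed, 1 member was called higher and 1 lower at 2-fold, against 1.76% and 0.265% of all tested genes. At any fold 2 were higher and 10 lower, against 3.16% and 2.48%, and all 10 were histones. The median log2 difference of the 77 members was -0.22, against -0.04 over all tested genes, and the summed histone level was 2177.78 to 2278.3 FPKM in T8 against 2689.67 to 2935.14 in T2, with no overlap.

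The member called lower was the H3 gene VIT_206s0004g01690, named after its values were seen, with 1.12, 0.5 and 0.94 FPKM in T8 against 3.27, 3.99 and 3.53 in T2 (-1.32, SE 0.28, adjusted p = 0.0047, and 0.096 with a pseudocount of 0.1). Among the abundant genes, the H2B gene VIT_206s0004g04300 had 138.49, 150.57 and 134.43 FPKM in T8 against 207.93, 240.7 and 201.92 in T2 (-0.61, adjusted p = 0.0023). The H2A gene VIT_200s0865g00030 had 39.66, 43.31 and 42.6 FPKM against 63.87, 65.88 and 64.55 (-0.62, adjusted p = 0.011). VIT_205s0020g04800, with an H1 description, had 124.6, 129.88 and 121.05 against 165.37, 178.77 and 160.15 (-0.42, adjusted p = 0.022). In these genes every T8 library was below every T2 library, by less than 2-fold.

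By harvest no member was called between T8 and T2 in the limma test at 2-fold or at any fold (background at 2-fold 0.032% and 0.0137%), 5 members had an unadjusted p under 0.05, and with a pseudocount of 0.1 limma called 0. From T2 E-L 35 to T8 E-L 36, 5 members rose and 0 fell (background 3.34% and 1.86%), and from E-L 36 to E-L 37, 5 rose and 1 fell (2% and 3.79%). The first count of 5 was 3 without library B of T2 at E-L 35, and the second of 6 was 2 without library B of T8 at E-L 36. After scaling of the libraries they were 2 and 3. Between E-L 37 and harvest, a step added after results were seen, 1 rose and 3 fell (0.982% and 5.05%): MCM7 rose by 1.19 (adjusted p = 0.00044, 0.98 without library B of E-L 38), from 1.4, 1.48 and 1.58 FPKM to 4.59, 6.55 and 3.3, and VIT_203s0180g00040 fell by 1.53 (adjusted p = 5.2e-06).

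Other genes of replication and division, listed by description, were compared over the same intervals. From E-L 29 to E-L 31 in T2, 27 of 131 tested genes for mitosis fell and 0 rose, and 4 of 10 genes for nucleotide supply fell. These are 20.6% and 40%, against 11.9% of all tested genes, while 6 of 70 genes for the replication fork fell (8.57%), a share near that background. The fallers included a kinesin gene, VIT_207s0031g00130 (48.23 to 10.47 FPKM, log2 change -2.06), the dihydrofolate reductase-thymidylate synthase gene VIT_203s0038g04500, which makes thymidylate (62.5 to 22 FPKM, -1.46), and the dUTPase gene VIT_218s0001g12360 (-1.18). The replication protein A1 gene VIT_211s0016g01390, which covers single-stranded DNA, fell by 1.05. Of 11 tested histone chaperone and handling genes and 19 genes for origin recognition 0 fell, lists too short to set apart from the background, and 2 of the latter rose. Of 62 tested cell cycle kinases and regulators 2 fell and 1 rose. These are 3.23% and 1.61%, below the 11.9% and 6.28% of all tested genes.

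Between E-L 35 and harvest in T2, 11 of 70 fork genes rose and 1 fell, 12 of 62 cell cycle kinases and regulators rose and 3 fell, and 18 of 131 mitosis genes rose and 10 fell. The shares that rose were 15.7%, 19.4% and 13.7%, against 11.7% of all tested genes, so the fork and mitosis lists lay near the background. The fork genes that rose included another replication protein A1 gene, VIT_202s0033g01170 (3.34 to 21.2 FPKM, log2 change 2.35, adjusted p = 2.3e-14), and replication factor C subunit 5, VIT_218s0001g02370, which loads PCNA (7.77 to 17.05 FPKM, 1.04). Among the histone handling genes, the nucleosome assembly protein 1-like chaperone VIT_209s0002g02330 rose from 66.11 to 200.72 FPKM (1.59, adjusted p = 7.7e-17) and MSI2, VIT_203s0038g02430, from 13.15 to 28.54 (1.06). The cohesin gene VIT_200s0220g00080 (SCC1) rose by 1.6 and the thymidine kinase gene VIT_200s0592g00010 by 1.31. Of 19 origin recognition genes 0 rose and 2 fell at 2-fold, a list too short to set apart from the background. At any fold, 9 of the 19 were higher at harvest and 4 lower. Their median log2 change was 0.58, against 0.06 over all tested genes. Several genes in these lists carry their description on match scores under 100 bits, so the lists are looser than their names.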

How the data were processed

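Poly(A) RNA of 42 seedless berry samples, in 14 groups of 3 biological replicates, had been sequenced as single reads of 50 bases on an Illumina HiSeq instrument. Per the study's methods and the submitters' processing notes, reads were mapped to the grape PN40024 reference with its V2 gene annotation, with at most 2 mismatches, by Bowtie or Bowtie2 (version 2.2.5 in the notes). The deposited values are FPKM, which the authors computed per gene and sample and wrote with 2 decimals. The counting tool is not given in the sources used here. FPKM corrects for length and for the number of mapped reads, so a few very high genes lower the values of all others in a library. No read counts were used, so the depth and counting error behind a single value are unknown.

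Members were taken by the KEGG Orthology description in the deposited table. The members and the pathway, seed and photosynthesis lists were chosen with earlier results of these data known. The 21902 of 28940 genes whose mean reached 1 FPKM in any group were tested on log2(FPKM + 1) with limma 3.58.1 in R 4.3.3, with trended moderation, all 14 groups in a single model with 28 residual degrees of freedom and two-sided p-values adjusted by Benjamini-Hochberg across the tested genes. A call needed an adjusted p under 0.05 and a log2 change of at least 1. Of 26 comparisons, 7 were added after results were seen. Sums, counts and plots were made in Python 3.11.15 with pandas 2.3.3, numpy 2.4.6 and matplotlib 3.10.9, and the fit was tested on simulated data. No pair of libraries held identical values.

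Genes were named by rule: in each family the 2 with the highest mean FPKM, in each comparison and family up to 3 called members with the smallest adjusted p and a group mean of at least 5 FPKM, all MCM and PCNA genes, and in the pathway lists up to 2 called genes by the same standard. From these the genes that show each result were described, and others are said to be chosen after their values were seen. The alternatives were a pseudocount of 0.1, no filter or a filter at 5 FPKM, median-of-ratios scaling, a fit of only the groups compared, a replicate block, no fold threshold and the omission of each library in turn. The study tested its genes with NOISeq, which was not run here. Gene positions and sequences were not used here.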

Additional observations from a re-analysis of the deposited data

Results flagged for a closer look

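For 5 members the effect of bagging from E-L 29 (T1 minus T2, on the log2(FPKM + 1) scale) differed between E-L 31 and E-L 35 in a limma interaction test, with adjusted p under 0.05 and a difference of at least 1. These were 3 higher and 2 lower of 77 tested members (3.9% and 2.6%), below the shares over all tested genes (5.23% and 3.59%). For the H2AX gene VIT_207s0104g00970 the effect was -0.79 at E-L 31 and 0.67 at E-L 35, a difference of 1.46 (SE 0.17, adjusted p = 2.3e-07). For VIT_203s0091g01060, matched to a D4-1 cyclin, it was -0.61 and then 0.98, a difference of 1.59 (SE 0.33, adjusted p = 0.0007). The T1 libraries of that gene had 6.47, 4.48 and 9.95 FPKM at E-L 31 against 13.32, 11.21 and 8.13 in T2, and 8.1, 7.95 and 6.08 FPKM at E-L 35 against 3.77, 3.28 and 2.69, so that the groups overlapped at E-L 31 only.

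The gene VIT_214s0081g00500, with an H1 description, had the opposite order, 0.66 and then -0.42, a difference of -1.08 (SE 0.25, adjusted p = 0.0021). The adjusted p was 0.072 with only the groups compared, and the difference was under 2-fold without library B of T1 at E-L 31 (-0.76), library B of T2 at E-L 31 (-0.92) or library C of T1 at E-L 35 (-0.98). Its T1 libraries had 22.73, 53.57 and 32.09 FPKM at E-L 31 against 19.97, 16.83 and 28.05 in T2, with overlap, and 26.54, 24.77 and 20.67 FPKM at E-L 35 against 32.93, 32.35 and 31.3, without overlap. The cyclin D gene VIT_203s0180g00040 had 0.37 and then -0.93, a difference of -1.3 (SE 0.32, adjusted p = 0.0029), which was -0.99 (adjusted p = 0.016) without library B of T2 at E-L 31. At E-L 35 its libraries had 8.74, 7.09 and 8.29 FPKM in T1 against 15.47, 16.76 and 16.39 in T2.

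The H2A gene VIT_200s0868g00020 was low in all 4 groups and had the weakest difference, 1.04 (SE 0.37, adjusted p = 0.04), from -0.86 at E-L 31 to 0.18 at E-L 35. It was not called after scaling (0.98, adjusted p = 0.051), without a filter (adjusted p = 0.053), with only the groups compared (adjusted p = 0.13), or without any 1 of 7 of the 12 libraries (0.81 to 1.1, adjusted p = 0.05 to 0.14): B and C of T1 and C of T2 at E-L 31, A and B of T1 and A and C of T2 at E-L 35. T1 had 2.52, 2.05 and 1.06 FPKM at E-L 31 against 3.55, 3.26 and 5.83 in T2. The seed tissue sums differed between T1 and T2 at E-L 31, and their part in these differences was not tested.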

How the results depend on the processing

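No call of a named gene changed direction under any alternative run. Of the 243 gene-level calls, 208 held with median-of-ratios scaling, 227 with a pseudocount of 0.1, 238 without a filter, 229 with only the groups compared, and 241 with the replicate block, while 184 of 184 still tested held at 5 FPKM. Over the omission of single libraries, 1322 of 1485 held.

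The following are numbers of members called, with 2-fold and adjusted p under 0.05 unless stated. With a filter at 5 FPKM they were 16 instead of 32 for T2 from E-L 29 to 31, 10 instead of 19 for the step from T2 E-L 29 to T1 E-L 31, and 1 instead of 2 for T8 against T2 at E-L 37. With scaling they were 7 (from 13) for T2 and 9 (from 14) for T1 from E-L 36 to 37, and, in T8, 2 (from 5) up to E-L 36 and 3 (from 6) up to E-L 37. With only the groups compared, the stage difference in the effect of T1 gave 3 instead of 5. With a pseudocount of 0.1, T2 gave 25, 14, 20 and 4 calls in the 4 steps from E-L 31 to 38 (from 15, 7, 13 and 2), T1 gave 18, 15 and 8 in the steps that begin at E-L 31, 35 and 37 (from 8, 7 and 5), and T8 gave 11 up to E-L 36 (from 5). It also gave 6, 4, 2 and 1 for T1 against T2 at E-L 31, 35, 37 and 38 (from 0), 3 and 1 for T8 against T2 at E-L 36 and 37, then 3 for T8 against T1, and 8 for the stage difference.

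With no fold threshold, T2 gave 53, 40, 26, 40 and 12 in its 5 steps, 54 between pepper-corn stage and harvest and 51 between véraison and harvest. T1 gave 51, 31, 22, 35 and 17 in its steps, and T8 gave 26, 29 and 21. T1 against T2 gave 15, 11, 1 and 4 at E-L 31 to 37, T8 against T2 gave 9 and 12 at E-L 36 and 37, T8 against T1 gave 4, and the stage difference 16.

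Leaving out 1 library gave 1 to 3 calls for T2 from E-L 37 to 38 (1 without T2 38 A or B), 3 to 7 for T8 up to E-L 36 (3 without T2 35 B) and 2 to 5 up to E-L 37 (2 without T8 36 B). T1 against T2 gave 0 to 4 at E-L 31 (4 without T1 31 A), 0 to 1 at E-L 35 (1 without T1 35 C, T2 35 A or T2 35 B) and 0 to 1 at E-L 37 (1 without T1 37 C). T8 against T2 gave 1 to 3 at E-L 36 (3 without T2 36 A, 2 without T8 36 B or C) and 1 to 3 at E-L 37 (1 without T2 37 C or T8 37 B), T8 against T1 gave 1 to 2 (2 without T8 36 C), and the stage difference 3 to 9 (9 without T1 31 A, 3 without T2 31 B).

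The replicate letters did not pair the libraries: deviations of same-letter libraries correlated at a mean of 0.0022 (-0.297 to 0.328), and 17 of 42 libraries correlated best with their own letter. The replicate block gave 32 calls for T2 from E-L 29 to 31, as without it, and moved no count by over 1.5 times. Scaling shifted the median of all tested genes from -0.22 to -0.06 for T2 from E-L 31 to 35, from 0.16 to 0 from E-L 36 to 37, and from -0.21 to -0.1 for T1 from E-L 31 to 35. The depth behind values near 0 is unknown, and 3 libraries a group limit the precision of every difference.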
